A study of Homo sapiens with 6 samples.

Results

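The E2F transcription factors, their DP partner and the pocket proteins of the RB family were followed in the established human uveal melanoma line 92.1, treated with VS-4718 or with vehicle. The rows were taken by symbol: E2F1, E2F2, E2F3, E2F4, E2F5, E2F6, TFDP1, RB1, RBL1 and RBL2. Of these 10 genes 9 had a row in the table of 12306 gene rows, and all 9 were among the 9229 rows tested. E2F6, a repressor E2F, had no row among those used here. The family was chosen with the result for E2F3 already known, so the values of the 9 genes in VS-4718 and vehicle cells are given as a description and support nothing beyond it.

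Pocket proteins (RB1, and RBL1 and RBL2, which encode p107 and p130) bind E2F factors and hold them back. Cyclin-dependent kinases phosphorylate the pocket proteins in G1, the freed E2F factors pair with a DP protein, and genes of DNA replication are switched on. E2F1, E2F2 and E2F3 are known mainly as activators, and E2F4 and E2F5 mainly as partners of p107 and p130 in repression.

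The 3 VS-4718 libraries came from cells given 1 µM of VS-4718, an inhibitor of focal adhesion kinase, for 2 h, and the 3 vehicle libraries from cells given DMSO for 2 h. Both groups are the same line, grown in the same serum-containing medium, and no genotype differed. The design text calls the samples independent but the labels do not say whether they were separate cultures, so p-values measure only how far these samples scatter, and that scatter may be technical. Fewer cells with a transcript and less of it per cell cannot be told apart in bulk RNA.

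Values are TPM-like units (abundance per transcript length, scaled to a fixed total) or their log2, and the depth of the libraries is unknown. The 6 libraries had rank correlations across genes between 0.984 and 0.988, and none stood apart. Melanocyte markers summed to between 7129 and 7812 TPM-like units in VS-4718 libraries and between 7342 and 7924 in vehicle libraries. PMEL, SOX10 and TYRP1 were abundant, while MLANA, TYR and DCT lay next to nothing in both groups. The 6 fibroblast markers with a row summed to between 2.17 and 2.56 units in VS-4718 libraries and between 1.20 and 2.45 in vehicle libraries, and the 2 immune markers with a row to at most 0.177 in VS-4718 libraries and 0.158 in vehicle libraries. The row names follow mouse usage in part, although the labels name a human build, so a level describes a row of this table and the abundance of a gene could differ from it.

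E2F genes are known to be regulated in part by E2F factors bound near their own start sites. The promoter window at the RefSeq start of E2F3, the gene whose result led to the choice of the family, is therefore shown. E2F3 lies on the plus strand of chromosome 6 from 20401906 to 20493715 in GENCODE 29 (GRCh38), where 3 protein-coding transcripts are annotated. The deposited row is per gene and does not separate them. Any start sites of E2F3 outside the window below were not examined. The RefSeq window of 300 bases around its start (GRCh38.p14, chr6:20401629-20401928, plus strand) is printed 5′ to 3′, with the E2F-type motifs TTTCGCG and TTGGCGC in capitals.
E2F3: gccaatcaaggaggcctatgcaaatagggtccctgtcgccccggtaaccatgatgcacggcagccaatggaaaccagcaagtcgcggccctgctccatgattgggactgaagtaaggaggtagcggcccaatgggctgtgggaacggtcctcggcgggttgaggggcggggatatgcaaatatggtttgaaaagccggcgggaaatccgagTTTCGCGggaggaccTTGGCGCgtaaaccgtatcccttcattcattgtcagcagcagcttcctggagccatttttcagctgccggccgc

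The same pair of motifs was in the windows of E2F1, E2F2 and RBL1. To compare them, the 60 bases just before each RefSeq start are given on the gene's own strand, with the same capitals (GRCh38.p14, E2F3 at chr6:20401819-20401878 on the plus strand, E2F1 at chr20:33686386-33686445, E2F2 at chr1:23531234-23531293 and RBL1 at chr20:37095998-37096057, all 3 on the minus strand).
E2F3: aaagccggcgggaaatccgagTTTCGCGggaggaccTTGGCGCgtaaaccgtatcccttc
E2F1: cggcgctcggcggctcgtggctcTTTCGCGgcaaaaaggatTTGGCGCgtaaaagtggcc
E2F2: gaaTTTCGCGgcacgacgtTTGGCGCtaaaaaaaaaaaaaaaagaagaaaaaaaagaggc
RBL1: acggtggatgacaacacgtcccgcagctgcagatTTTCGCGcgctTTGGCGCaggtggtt

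In all 4 the motif TTTCGCG came first and TTGGCGC followed on the same strand, with 8 bases between them in E2F3, 11 in E2F1, 9 in E2F2 and 4 in RBL1. Read on both strands anywhere in the window, TTGGCGC was in 3.04% of the 35116 RefSeq promoter windows, TTTCGCG in 1.32% and both in 0.128%. In that order within the 60 bases, the pair was in 4 windows, and these were the 4 shown; the order and the 60 bases were set after these sequences had been read. E2F3 also held 4 copies of CCAAT (on either strand, in at least 1 copy in 34.6% of windows) and 1 copy of TTTGAA (15.2% of windows). The window of TFDP1 held TTTCGCG alone, and those of E2F4, E2F6 and RBL2 held neither E2F-type motif. The RBL2 window lies inside the gene, with its RefSeq start 494 bases from the annotated gene start and 51 from the nearest annotated transcript start. Its lack of a match thus does not cover the annotated gene start. The RB1 window was left out because it lies inside the gene, 172724 bases from the annotated gene start. A match describes letters only. E2F3, E2F1, E2F2 and RBL1 share the pair. The longer E2F site TTTGGCGC (0.652% of windows) was in the windows of E2F1, E2F2 and RBL1 but not in that of E2F3. The RNA values of these 4 genes after VS-4718 are given next.

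E2F3, known mainly as an activator of entry into S phase, had 24.1, 27.4 and 19.5 TPM-like units in the VS-4718 libraries. The vehicle libraries had 9.73, 10.6 and 9.35. Every VS-4718 library lay above every vehicle library, and on the log2 scale the nearest VS-4718 and vehicle libraries were 0.88 units apart. On the log2 scale E2F3 averaged 4.55 ± 0.25 in VS-4718 cells and 3.30 ± 0.09 in vehicle cells (SD, n = 3 each), a fold change of 1.25 log2 units (SE 0.14), or 2.37-fold (95% interval 1.89 to 2.98). In the limma fit over all rows its adjusted p was 0.045, which is the value that led to the choice of the family. Leaving out any 1 of the 6 libraries kept the fold change between 1.13 and 1.38 log2 units but ended the call (adjusted p between 0.075 and 0.231). With the libraries of the same number as a block the adjusted p was 0.161.

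E2F1, the founding activator of the family, had 15.0, 14.4 and 14.8 TPM-like units in the VS-4718 libraries, against 13.9, 14.7 and 14.9 in the vehicle libraries. The groups overlapped, and the log2 fold change was 0.02 (SE 0.08, 95% interval -0.17 to 0.21). Its residual SD, the spread about the group means, was 0.046 log2 units, and only 3.02% of the 1591 rows of similar level (within 0.5 log2 units of its mean) had a smaller one. E2F2, the third activator, was near the floor of the tested rows, with 1.89, 1.50 and 1.88 units in the VS-4718 libraries, against 1.66, 1.41 and 1.74 in the vehicle libraries. Its groups overlapped too (log2 fold change 0.13, SE 0.19, 95% interval -0.33 to 0.58). Of the 3 activators, which share the motifs TTTCGCG and TTGGCGC, E2F3 passed and E2F1 and E2F2 did not. Whether their fold changes differ was not tested.

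**Figure D1:**
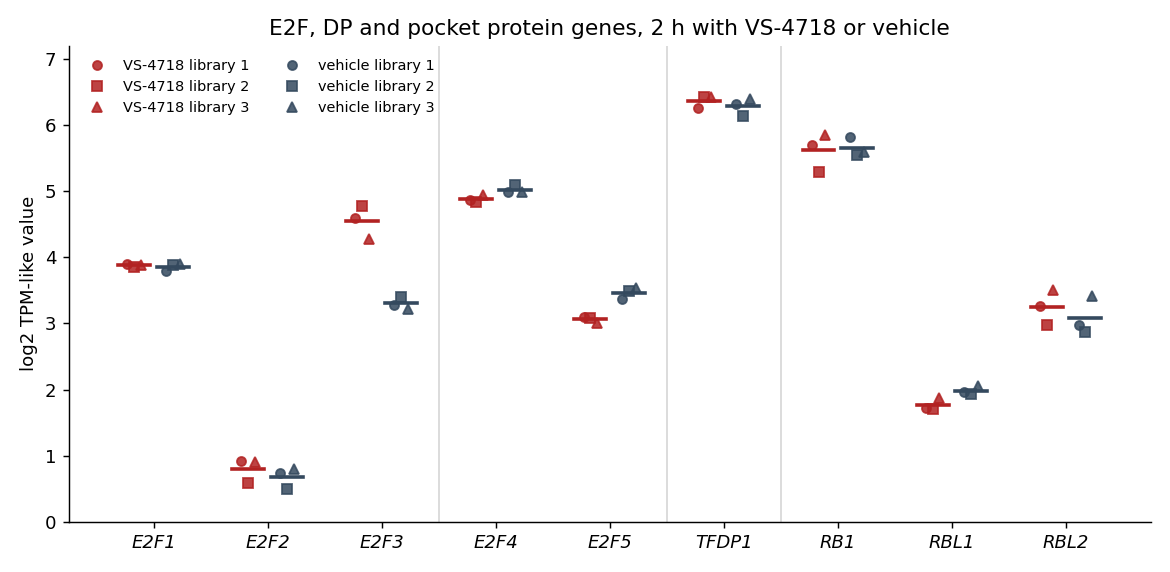
Log2 TPM-like value of each gene in each library (points; circle, square and triangle are libraries 1, 2 and 3 of a group; VS-4718 in red at left, vehicle in dark blue at right; short lines are group means). E2F3 lies at 4.28 or above in VS-4718 libraries and at 3.40 or below in vehicle libraries, while E2F1, E2F2, TFDP1, RB1 and RBL2 overlap between groups.

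E2F4 and E2F5, the E2F factors that work mainly with p107 and p130, were both lower in all 3 VS-4718 libraries, and neither passed. E2F5 had 8.53, 8.49 and 8.03 TPM-like units in the VS-4718 libraries, against 10.3, 11.3 and 11.6 in the vehicle libraries. The groups did not overlap, with a log2 fold change of -0.40 (SE 0.10, 95% interval -0.63 to -0.18, adjusted p = 0.291 in limma), which is 24.4% below vehicle. E2F4, the most abundant E2F in this table, had 29.3, 28.7 and 30.6 units in the VS-4718 libraries, against 31.7, 34.1 and 31.8 in the vehicle libraries. Its groups were separate by 0.05 log2 units only (log2 fold change -0.14, SE 0.07, adjusted p = 0.580 in limma). For E2F5 the log2 fold change lay between -0.45 and -0.37 in the 14 alternatives tried, with an unadjusted p under 0.05 in limma in each. The alternatives reuse the same libraries, and some leave the fold change itself unaltered, so they are not further evidence. In the main fit 9.76% of all tested rows had an unadjusted p under 0.05.

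TFDP1, which encodes DP1, a DP protein that pairs with E2F factors, had the highest level of the 9 genes. It stood at 76.7, 86.2 and 85.6 TPM-like units in the VS-4718 libraries, against 79.6, 70.8 and 84.3 in the vehicle libraries. The groups overlapped, and the log2 fold change was 0.08 (SE 0.09, 95% interval -0.12 to 0.29).

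The pocket protein genes showed no common direction. RB1, the retinoblastoma gene, had 52.3, 39.0 and 58.1 TPM-like units in the VS-4718 libraries, against 56.4, 46.9 and 48.4 in the vehicle libraries. Its groups overlapped widely, and VS-4718 library 2 was the lowest of the 6 (log2 fold change -0.04, SE 0.15, 95% interval -0.41 to 0.33). RBL1, which encodes p107 and is itself known as an E2F target, had 3.30, 3.26 and 3.64 units in the VS-4718 libraries, against 3.90, 3.81 and 4.17 in the vehicle libraries. All 3 VS-4718 libraries were below the vehicle libraries, by 0.06 log2 units at the nearest, and the gene did not pass (log2 fold change -0.22, SE 0.13, adjusted p = 0.620 in limma). RBL2, which encodes p130, the pocket protein of resting cells, had 9.58, 7.86 and 11.3 units in the VS-4718 libraries, against 7.88, 7.30 and 10.7 in the vehicle libraries. Its groups overlapped, with library 3 the highest and library 2 the lowest in both (log2 fold change 0.16, SE 0.19).

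RB1 and RBL2 varied more within groups than most rows of their level. Their residual SDs of 0.23 and 0.28 log2 units were above those of 89.0% of 1217 and 76.1% of 1579 rows of similar level. For E2F3 the figure was 0.19 log2 units, above 62.2% of 1598 such rows. For RBL1, E2F5 and E2F4 it was between 0.06 and 0.08, above fewer than 10% of such rows. Genes on the opposite strand overlap RB1 and RBL2 in GENCODE 29. LPAR6 and RCBTB2, which overlap RB1, had up to 0.251 and 5.11 TPM-like units in VS-4718 libraries and up to 0.158 and 3.48 in vehicle libraries. AKTIP, which overlaps RBL2, had up to 1.00 unit in VS-4718 libraries and up to 1.07 in vehicle libraries. No source used here gives the strandedness of the libraries, so reads of such pairs may not have been told apart. The 2 annotated E2F3 pseudogenes and the 1 annotated E2F4 pseudogene had no row among those used here, so any of their reads could sit in the rows of E2F3 and E2F4.

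Of the 9 genes 1 passed the test over all rows, against 0.13% of all 9229 rows (12 rows, 0.0433% as higher and 0.0867% as lower), and 8 did not, with adjusted p between 0.291 and 0.951 in limma. The groups did not overlap in 4 of the 9, E2F3 as higher and E2F4, E2F5 and RBL1 as lower, against 16.4% of all tested rows, 5.15% as higher and 11.2% as lower. Nothing is read from these shares, since the family was chosen on the same contrast. The median log2 fold change of the 9 genes was 0.02 and that of all tested rows -0.03. E2F3 was the 10th row by p and the 14th by height of the fold change among the 9229.

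**Figure D2:**
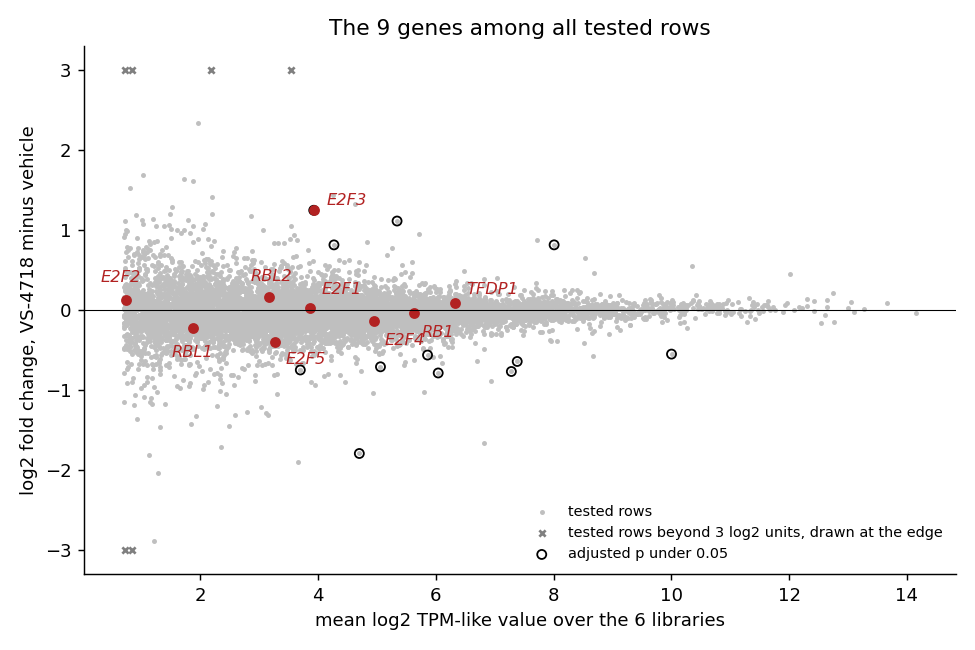
Log2 fold change (VS-4718 minus vehicle) of each tested row against its mean log2 TPM-like value over the 6 libraries; red points are the 9 genes, black rings the 12 rows with an adjusted p under 0.05. E2F3, at 1.25, is the one red point with a ring, and the other 8 lie between -0.40 and 0.16.

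The order of the levels differed between the groups in the place of E2F3 and in the order of RBL2 and E2F5. In VS-4718 cells the order was TFDP1, RB1, E2F4, E2F3, E2F1, RBL2, E2F5, RBL1 and E2F2, and the only neighbours whose libraries overlapped were RBL2 and E2F5. In vehicle cells it was TFDP1, RB1, E2F4, E2F1, E2F5, E2F3, RBL2, RBL1 and E2F2, where E2F3 overlapped with E2F5 above it and with RBL2 below it. E2F3 was thus above E2F1 in each VS-4718 library, by 0.40 to 0.93 log2 units, and below E2F1 in each vehicle library, by a difference of -0.68 to -0.48.

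Summed on the linear scale, E2F1 to E2F5 came to between 74.8 and 80.5 TPM-like units in VS-4718 libraries and to between 67.2 and 72.1 in vehicle libraries. E2F3 made up 30.6%, 34.1% and 26.0% of that sum in the VS-4718 libraries, against 14.5%, 14.7% and 13.5% in the vehicle libraries. E2F4 had the largest share in both groups, 37.9% ± 2.75 in VS-4718 cells and 46.7% ± 0.820 in vehicle cells (SD, n = 3 each). E2F5 made up 10.7% ± 0.146 in VS-4718 cells and 15.9% ± 0.732 in vehicle cells. Among the 3 activators alone, E2F3 held between 53.9% and 63.3% in VS-4718 libraries and between 35.9% and 39.6% in vehicle libraries. These shares restate the levels above, mostly that of E2F3, and are not further evidence.

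**Figure D3:**
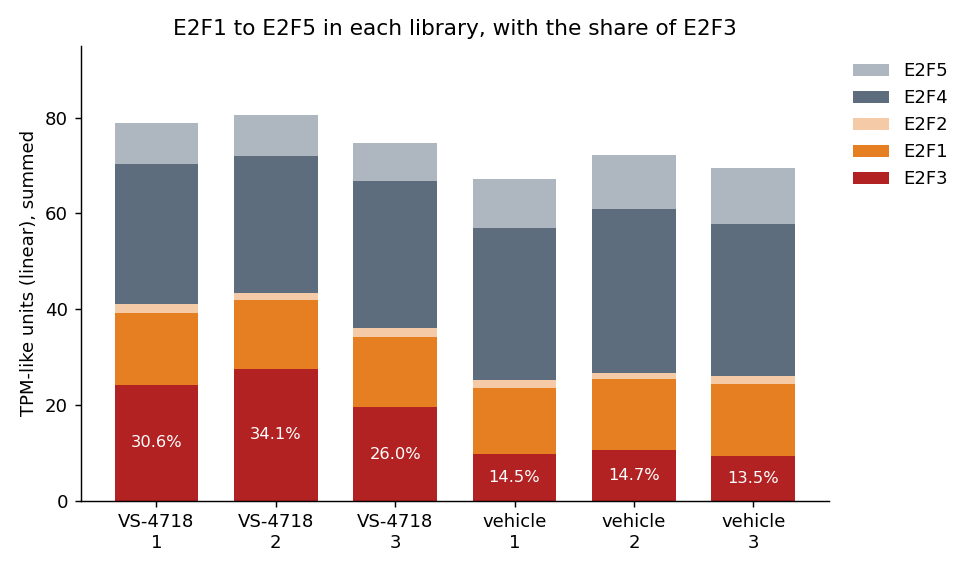
TPM-like units of E2F1 to E2F5 stacked for each library on a linear axis, with the share of E2F3 printed in its segment. The E2F3 segment is between 26.0% and 34.1% of the stack in VS-4718 libraries and between 13.5% and 14.7% in vehicle libraries.

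The pocket protein genes together came to between 50.1 and 73.0 TPM-like units in VS-4718 libraries and between 58.0 and 68.2 in vehicle libraries, so these sums overlapped. RB1 supplied most of them, 79.2% ± 1.23 in VS-4718 cells and 80.0% ± 3.16 in vehicle cells (SD, n = 3 each). Per unit of activator E2F RNA there were 1.16 to 2.02 units of pocket protein RNA in VS-4718 libraries and 2.17 to 2.70 in vehicle libraries. This is a ratio of RNA levels and says nothing of the proteins or their phosphorylation. Its difference between the groups mostly restates the level of E2F3 and is not further evidence.

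The rest of the pathway was read from 7 lists with 99 distinct genes, of which 81 were tested. None passed the limma test over all rows, against 0.13% of all tested rows. At that share a count of 0 tells little about these genes. At an unadjusted p under 0.05 there were 6 of the 81, all lower in VS-4718 cells, which is 7.41% of them, against 9.76% of all tested rows (6.74% as lower). The mean was lower in VS-4718 cells for 58 of the 81 (71.6%, against 58.2% of all tested rows), with a median log2 fold change of -0.04. Some genes below are named as lower without overlap, as were 11.2% of all tested rows. Among the remaining family genes, the fold change of E2F7, a repressor E2F without a DP partner, was 0.17 on the log2 scale (SE 0.17), and that of TFDP2, which encodes the other main DP protein, was 0.20 (SE 0.11). The groups overlapped for both genes. E2F8 was too low to test, and TFDP3 had no row among those used here.

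Of the G1 cyclins, their kinases and regulators that act on pocket proteins, none of 12 tested genes passed (median log2 fold change -0.07). Lower means were found for 10 of the 12, against 58.2% of all tested rows. CCND1, which encodes cyclin D1, the first cyclin to act on RB1 in G1, averaged 5.94 ± 0.05 in VS-4718 cells and 6.22 ± 0.07 log2 units in vehicle cells (SD, n = 3 each). Its groups did not overlap and its adjusted p was 0.257 in limma (log2 fold change -0.29, SE 0.06). CDK2, the kinase of cyclins E and A, and CCNA2, which encodes cyclin A2, were each lower without overlap by small amounts, with log2 fold changes of -0.07 (SE 0.04) and -0.08 (SE 0.06). CCNH, a subunit of the kinase that activates the others, had -0.09 (SE 0.07) with overlapping groups. Of the CDK inhibitors, 3 of 7 had a row. CDKN1B, which encodes p27, stood 0.39 log2 units above vehicle with overlapping groups (SE 0.17, adjusted p = 0.518 in limma). CDKN2C, which encodes p18, and CDKN1A, which encodes p21, had differences of 0.05 (SE 0.12) and -0.01 (SE 0.08).

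Known target genes of E2F in G1 and S phase had a median log2 fold change of -0.04, against -0.03 for all tested rows. None of the 33 tested passed, and 24 had lower means and 9 higher ones, where 58.2% of all tested rows had lower means. MCM10, a factor needed to start DNA replication, averaged 3.24 ± 0.18 log2 units in VS-4718 cells and 3.65 ± 0.10 in vehicle cells (SD, n = 3 each), with an adjusted p of 0.376 in limma. RRM2, a subunit of ribonucleotide reductase, averaged 7.77 ± 0.06 in VS-4718 cells and 7.86 ± 0.02 in vehicle cells. The log2 difference was -0.27 (SE 0.11) for UNG, which removes uracil from DNA, and 0.16 (SE 0.08) for POLD1, the catalytic subunit of DNA polymerase delta. Summed, the target rows came to between 2239 and 2301 TPM-like units in VS-4718 libraries and between 2283 and 2375 in vehicle libraries, which overlap. The genes PCNA, CDT1, TK1, GINS2 and CDK1 had no row among those used here, and CDC6, ORC1 and UHRF1 were too low to test.

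**Figure D4:**
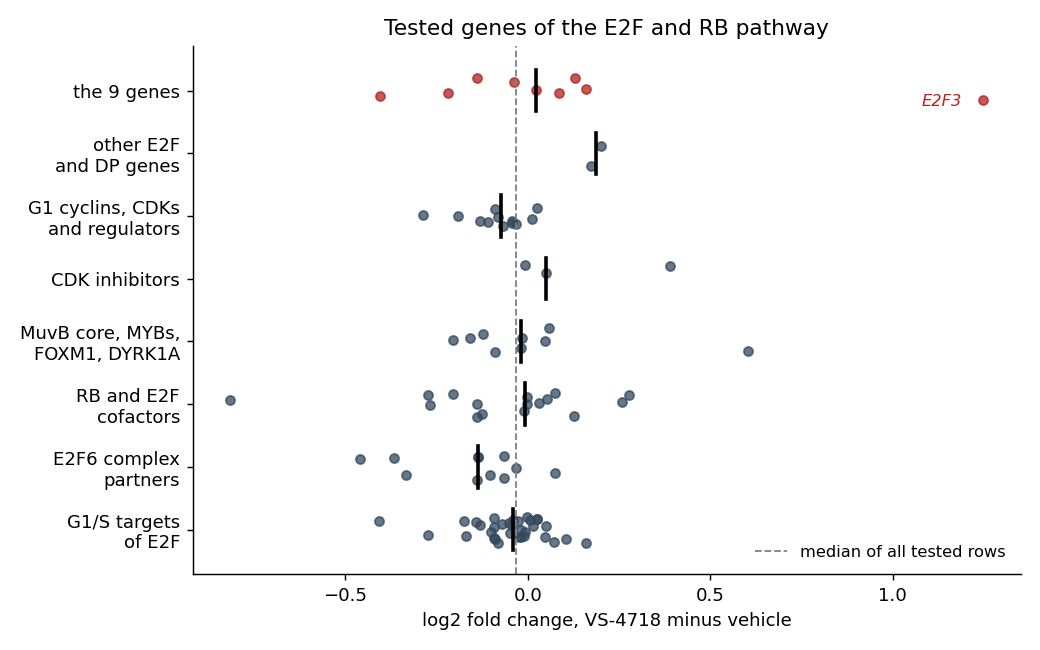
Log2 fold change (VS-4718 minus vehicle) of the 9 genes (red) and of the tested genes of the 7 pathway lists (dark blue; some genes are in more than 1 list). Black bars are list medians, the dashed line is the median of all tested rows at -0.03, and E2F3 at 1.25 is the highest of the points drawn.

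The complexes in which E2F and pocket proteins work gave no call either. The MuvB core joins p107 or p130 and E2F4 or E2F5 in the repressive DREAM complex, and binds B-MYB and FOXM1 in a separate activating one. Of the genes of MuvB, these partners and DYRK1A, 9 were tested and 6 had lower means, against 58.2% of all tested rows. FOXM1 averaged 6.79 ± 0.02 log2 units in VS-4718 cells and 6.92 ± 0.06 in vehicle cells (SD, n = 3 each) without overlap (adjusted p = 0.520 in limma). DYRK1A, the kinase that promotes assembly of DREAM, stood at a difference of -0.16 log2 units (SE 0.10), and the MuvB subunits LIN9 and LIN52 at -0.21 (SE 0.18) and 0.60 (SE 0.52). Of the cofactors of RB1 and E2F, 16 were tested and 10 had lower means, against the same 58.2%. ARID4B, a subunit of the SIN3 histone deacetylase complex, averaged 1.93 ± 0.25 in VS-4718 cells and 2.75 ± 0.32 in vehicle cells without overlap (log2 fold change -0.82, SE 0.21, adjusted p = 0.332 in limma). SUV39H1, a histone methyltransferase recruited by RB1, had -0.21 (SE 0.10), HDAC2 -0.14 (SE 0.08) and KDM5A, a histone demethylase that binds RB1, 0.26 (SE 0.15).

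Partners of E2F6 in its Polycomb complex were measured although E2F6 was not. Of 11 tested, none passed and the median log2 fold change was -0.14. Lower means were found for 10 of the 11, against 58.2% of all tested rows. MAX, a DNA-binding partner of MGA and MYC, averaged 5.98 ± 0.10 log2 units in VS-4718 cells and 6.44 ± 0.35 in vehicle cells (SD, n = 3 each; adjusted p = 0.472 in limma). PCGF6, a Polycomb ring finger protein, averaged 2.48 ± 0.13 in VS-4718 cells and 2.85 ± 0.09 in vehicle cells (adjusted p = 0.404 in limma), and L3MBTL2 had a log2 fold change of -0.33 (SE 0.20).

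The rows with a profile most like that of E2F3 were found by the root mean square difference of log2 values over the 6 libraries, each row centred on its own mean, among 7222 other tested rows with a current human symbol. The nearest was CLK1, a kinase of splicing factors, at 0.180 log2 units, followed by ZBTB34 (0.218), CREBRF (0.225), EGR1 (0.243) and KIF24 (0.257), where the median row was at 0.678. CLK1 averaged 5.90 in VS-4718 cells and 4.79 log2 units in vehicle cells (n = 3 each), with values of 5.98, 5.88 and 5.84 in the VS-4718 libraries, against 4.56, 4.96 and 4.83 in the vehicle libraries. Of the 5, CLK1 alone passed the limma test over all rows (adjusted p = 0.028). No row at all was called with the replicate block, in limma without trend or without any 1 of 4 libraries (vehicle 1 or 3, VS-4718 2 or 3), so that CLK1 was not called there either. EGR1, an immediate early transcription factor, stood 0.86 log2 units above vehicle (SE 0.11, adjusted p = 0.072 in limma). The log2 differences of CREBRF, ZBTB34 and KIF24 were 1.05 (SE 0.17), 1.12 (SE 0.22) and 0.85 (SE 0.24). The measure finds rows that are high in VS-4718 libraries by a similar amount, and nothing is said of shared control.

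**Figure D5:**
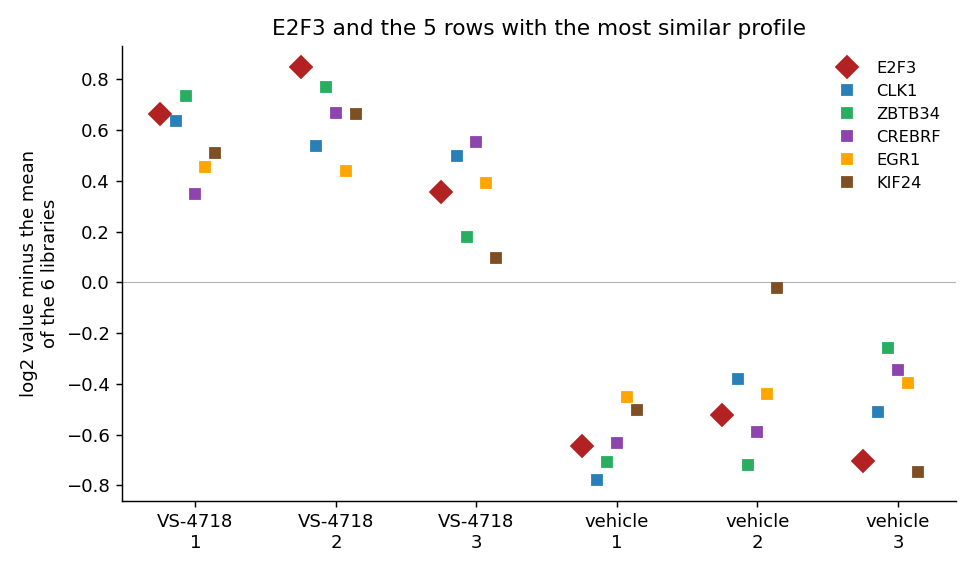
Log2 value minus the row's mean over the 6 libraries, for E2F3 (red diamonds) and the 5 nearest rows (squares), in each library; points are shifted sideways for legibility. All 6 rows are above their mean in the 3 VS-4718 libraries and below it in the 3 vehicle libraries.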

How the data were processed

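RNA of 92.1 cells was sequenced from 3 VS-4718 and 3 vehicle libraries. The authors deposited log2 values per gene symbol; per the submitters' processing notes the tool was kallisto and the build GRCh38, and no source used here gives the index, the strandedness or any filter. On the linear scale the columns sum to between 836527 and 840714, so the values were read as log2 of a TPM-like measure, which keeps no depth.

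A linear model with group as its term was fitted with limma-trend (limma 3.58.1, R 4.3.3) to all rows with a mean above the lowest 25% (over 0.70), two-sided, Benjamini-Hochberg over 9229 rows, threshold 0.05. An exact permutation of 3 against 3 cannot go below 0.1, so no single value was tested that way. Fold changes are VS-4718 minus vehicle, and their SE and 95% interval come from the moderated variances. The script was tested on simulated data.

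The members, the lists and the tests were chosen with earlier results of these data known. Named were all members, up to 4 genes of each list with the smallest p, and the 5 rows nearest to each called member; genes named as having no row or as too low to test, the overlapping genes and the markers stand outside that rule. Promoters are RefSeq's (GRCh38.p14, 9 of the 10 members matched; E2F5 was not), gene positions GENCODE 29's. Figures were drawn with matplotlib 3.10.9.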

Additional observations from a re-analysis of the deposited data

How the results depend on the processing

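Results were recomputed with a replicate block, after leaving out each library, with median scaling, with no filter and a stricter one, without limma's trend, with robust variances, with quality weights and with a pseudocount of 1. All of these reuse the same libraries, so they are not further evidence. E2F3 stayed higher in all 14 alternatives, with an unadjusted p under 0.05 in each and an adjusted p between 0.026 and 0.231. It lost its call in 9: with the replicate block (1.25 log2 units, adjusted p = 0.161), with no filter (1.25, adjusted p = 0.058), in limma without trend (1.25, adjusted p = 0.087) and with any library left out (1.13 to 1.38). By construction the block and the left-out libraries leave fewer degrees of freedom, and no filter adds rows. With a library left out the fold change of E2F3 and its SE also moved. Why the call was lost was not tested for any of these settings. The count of called rows was 12. The replicate block gave 0 (793 at an unadjusted p under 0.05), limma without trend gave 0 (910), and leaving out a library gave 0 to 7. It was 7 when vehicle replicate 2 was left out, 1 when VS-4718 replicate 1 was, and 0 for each of the other 4 libraries, where 710 to 987 had an unadjusted p under 0.05. With a library left out the sign reversed for E2F1 (-0.011 to 0.043, negative without vehicle replicate 1) and for RB1 (-0.16 to 0.13, positive without vehicle replicate 1 and positive without VS-4718 replicate 2). The other 6 genes kept their sign and stayed uncalled wherever they had a value. Leaving out a library moved RBL2 between 0.03 (without VS-4718 replicate 3) and 0.32 (without vehicle replicate 3), TFDP1 between 0.01 (without vehicle replicate 2) and 0.14 (without vehicle replicate 3), and E2F2 between 0.04 (without vehicle replicate 2) and 0.24 (without VS-4718 replicate 2), while E2F4 (-0.17 to -0.10), E2F5 (-0.45 to -0.37) and RBL1 (-0.27 to -0.18) moved less. Each pathway list kept its count of 0. E2F2 had no value under the stricter filter or without VS-4718 replicate 1, and RBL1 none under the stricter filter. Same-numbered libraries had residual correlations across rows of 0.135, 0.0547 and 0.0316, against -0.0938 to 0.0491 for the others. These values do not settle whether the numbers pair the samples. The main fit left pairing out because the labels do not state it. With the replicate block the call of E2F3 was lost (adjusted p = 0.161 in limma), and no other member had a call to lose. With the depth unknown, no counting error could be given for low rows such as E2F2.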
